A study of Mus musculus with 6 samples.

Results

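Spp1, which encodes the secreted phosphoprotein osteopontin, was examined together with genes of acid matrix breakdown that are best known from osteoclasts (Atp6v0d2, Ctsk, Acp5 and Gpnmb) and with the genes of the MiT/TFE transcription factors Mitf, Tfeb and Tfe3. These 8 genes were taken by symbol from 16671 genes with a value, and all 8 were found. They had been picked for lower values after C1q treatment in these same libraries, so their C1q and control values are given as a description, without a test. The cells were fibro-adipogenic progenitors (FAPs), stromal cells that lie between the fibres of muscle, purified by flow cytometry from hindlimb muscles of wild-type mice aged 4 to 5 months. One group of 3 libraries came from FAPs that received C1q at 100 µg/ml and the other group of 3 libraries from FAPs that received vehicle, called controls here. The mouse strain, the length of the treatment, and whether the libraries of a group came from separate animals or cultures are unstated in the labels, so the p-values speak only of the scatter among these 6 libraries, which may be technical. The extraction text of the labels names muscle stem cells where the other labels name FAPs; in the values, the FAP marker Pdgfra averaged 32857 ± 1308 with C1q and 19529 ± 4229 in controls normalised reads (± SD, n = 3 each), and the muscle stem cell marker Pax7 averaged 2.32 ± 1.06 with C1q and 3.30 ± 3.88 in controls. Other muscle-lineage RNA was present. Myod1 averaged 258 ± 19.4 with C1q and 841 ± 487 in controls, and Acta1 7030 ± 1580 with C1q and 18611 ± 11171 in controls. C1q is the recognition protein of the classical complement pathway, and the comparison asks how FAPs respond to it.

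Osteopontin is an acidic protein of bone matrix that is also secreted by injured and inflamed tissue, muscle included, where it binds integrins and CD44 on neighbouring cells. Osteoclasts, the bone-resorbing cells of the macrophage lineage, acidify the bone surface with the vacuolar proton pump (V-ATPase) and digest the exposed collagen with cathepsin K. MITF and its relatives TFEB, TFE3 and TFEC are basic helix-loop-helix leucine zipper proteins that bind E-box and M-box sequences. They are known to drive Ctsk, Acp5, Gpnmb and Atp6v0d2 in osteoclasts or macrophages and lysosomal genes in many cell types. Nutrient signalling through mTORC1 at the lysosome keeps these factors in the cytoplasm, so their mRNA does not report their activity.

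The values are read counts per gene that the authors divided by a size factor for each library, called normalised reads below. The libraries held 31929119, 24046020 and 29818424 reads on the listed genes in C1q replicates 1 to 3, and 38861152, 29325341 and 5379209 in control replicates 1 to 3. Control replicate 3 was the shallowest, and 1 read there is worth 4.25 normalised reads, against 0.583 to 0.975 in the other libraries. The controls also differed in muscle-lineage RNA: the summed level of 10 muscle genes was 16289, 24885 and 21722 normalised reads in C1q replicates 1 to 3, against 87478, 48408 and 27126 in control replicates 1 to 3. The 12 FAP markers summed to 783972 to 967520 in the C1q libraries and 463938 to 591509 in the control libraries. For both, the two-sided exact permutation test over libraries gave p = 0.1, which is the floor with 3 libraries a group (0.125 adjusted over 15 such sums). The share of reads on mitochondrial genes was 1.85% to 2.25% in C1q libraries and 3.98% to 5.29% in control libraries. The part of muscle RNA, of the FAP share and of mitochondrial reads in the results below was not tested. Differences between the groups across all genes were tested with limma-trend on log2(value + 1), and a gene is called lower or higher where its Benjamini-Hochberg adjusted p is below 0.05. Adjusted p-values below come from that test, over all 16671 genes, unless another fit is named; the blocked fit adds the replicate number as a factor. A log2 ratio or log2 fold change is C1q over control. Of all 16671 genes 18.7% were called lower with C1q and 19.7% higher. Of the muscle genes 7 were called lower, and of the FAP markers 8 were called higher and 1 lower; the muscle count was 3, 5 and 4 without C1q replicates 1, 2 and 3, and 7, 4 and 9 without control replicates 1, 2 and 3.

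The start sites of the members are shown because the factors of this family act through short motifs near them. RefSeq promoter windows of build GRCm38.p6, from 250 bases before to 50 bases after an annotated transcript start, were found for 7 of the 8 members, which have 15 such windows between them. For Atp6v0d2 no window was used. Capitals mark a match on either strand to 1 of 4 motifs: TCACGTG, the core of the CLEAR element bound by TFEB and TFE3; CACGTG, the E-box, which lies inside it; TCATGTG, the M-box of MITF; and TGANTCA, the site of AP-1. The 4 windows below belong to members whose control values were above their C1q values in every library, with the Spp1 window at the start of the gene position given below and, of the 3 Acp5 windows, the one with a match.
Spp1, chr5:104434861-104435160, plus strand: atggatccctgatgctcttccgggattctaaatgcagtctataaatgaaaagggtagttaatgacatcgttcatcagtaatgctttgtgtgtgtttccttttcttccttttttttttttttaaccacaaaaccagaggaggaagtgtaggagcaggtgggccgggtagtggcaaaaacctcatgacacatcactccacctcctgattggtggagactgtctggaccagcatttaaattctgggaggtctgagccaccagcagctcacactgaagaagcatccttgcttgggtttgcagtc
Ctsk, chr3:95498960-95499259, plus strand: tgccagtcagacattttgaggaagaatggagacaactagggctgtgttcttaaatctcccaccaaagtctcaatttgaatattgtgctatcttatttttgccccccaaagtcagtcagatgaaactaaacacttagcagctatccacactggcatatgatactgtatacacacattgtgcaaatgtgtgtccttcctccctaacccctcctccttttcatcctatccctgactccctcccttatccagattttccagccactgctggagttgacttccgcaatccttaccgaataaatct
Gpnmb, chr6:49036268-49036567, plus strand: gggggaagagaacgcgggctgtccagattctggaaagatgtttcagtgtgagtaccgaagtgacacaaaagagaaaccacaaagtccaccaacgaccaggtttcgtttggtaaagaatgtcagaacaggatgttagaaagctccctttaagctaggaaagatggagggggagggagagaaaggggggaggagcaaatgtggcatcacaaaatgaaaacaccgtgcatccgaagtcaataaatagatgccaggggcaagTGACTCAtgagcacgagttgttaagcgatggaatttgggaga
Acp5, chr9:22130549-22130848, minus strand: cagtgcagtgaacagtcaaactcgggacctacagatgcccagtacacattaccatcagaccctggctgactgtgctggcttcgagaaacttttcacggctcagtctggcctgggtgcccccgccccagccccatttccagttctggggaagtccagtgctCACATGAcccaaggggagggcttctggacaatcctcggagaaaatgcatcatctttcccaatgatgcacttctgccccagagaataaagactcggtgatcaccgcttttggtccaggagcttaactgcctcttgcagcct
The Spp1 and Ctsk windows shown hold none of the 4 motifs. The Gpnmb window has an AP-1 match that begins at base 9 of the transcript, and the Acp5 window has an M-box match that begins 90 bases before its start. The only other match in the 15 windows is an AP-1 site in 1 of the 2 Tfe3 windows, at base 35 of the transcript. The CLEAR core was in 0 of the 15 windows and the E-box in 0, beside 3.77% and 7.15% of 32851 windows of all genes and 5.45% and 9.36% of 15672 windows of genes with a value here. The M-box was in 1 of the 15, beside 3.77% of all windows and 2.23% of those of genes with a value. The AP-1 site was in 2, beside 7.81% and 5.62%. These matches describe the letters in these windows only.

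The osteoclast label was set against the markers of that lineage before the members were described. Of 24 myeloid markers, 20 had a value and 13 of these averaged under 10 normalised reads. Ptprc, which encodes the pan-leukocyte protein CD45, was not found by symbol among the genes with a value. Reads of the macrophage gene Adgre1 numbered 0, 22 and 1 in C1q replicates 1 to 3 and 1, 7 and 0 in control replicates 1 to 3. Those of Tyrobp, an adaptor of myeloid receptors, numbered 0, 20 and 0 and 0, 4 and 0 in the same libraries. Replicate 2 of each group held most of the reads of both genes, and the other libraries held at most 1. Csf1r, the receptor for the macrophage growth factor, stood at 42.3, 55.6 and 33.6 normalised reads in C1q replicates 1, 2 and 3, against 68.2, 54.1 and 68.02 in control replicates 1, 2 and 3, with overlapping groups. Of the 20 myeloid markers 3 were called lower and 0 higher by limma-trend and by edgeR (3 and 0 at an unadjusted p under 0.05 in limma-trend). These limma-trend shares were 15% lower and 0% higher, beside 18.7% and 19.7% of all genes. Cx3cr1, a chemokine receptor of monocytes, numbered 2, 0 and 2 reads in C1q replicates 1 to 3 and 20, 16 and 5 in control replicates 1 to 3 (log2 ratio -3.10 ± 0.54 SE, adjusted p 0.0034). Itgb2, the common integrin chain of leukocytes, averaged 17.3 ± 6.64 with C1q and 58.04 ± 21.6 in controls (log2 ratio -1.70 ± 0.40 SE, adjusted p 0.013), and Cd14, a co-receptor for lipopolysaccharide, averaged 243 ± 22.9 with C1q and 411 ± 143 in controls (log2 ratio -0.70 ± 0.23 SE, adjusted p 0.0436). The Cd14 call was lost with 1 library left out (adjusted p up to 0.121) and with a trend of the values on transcript length removed (0.22). Lyz2, another of the 20, ran the other way, with 154, 462 and 208 normalised reads in C1q replicates 1, 2 and 3. In control replicates 1, 2 and 3 Lyz2 had 43.7, 164 and 136, so the groups overlapped. It was not called (log2 ratio 1.30 ± 0.56 SE, adjusted p 0.108), but had an adjusted p of 0.0056 in the blocked fit. The part of these genes in the members' values was not tested. Tnfrsf11a, which encodes the receptor RANK that osteoclast precursors need, had at most 4 reads in any library, and Ocstamp, a fusion gene of osteoclasts, at most 4. Dcstamp and Calcr, further osteoclast markers, were not found by symbol among the genes with a value. The genes below are thus called by their symbols and not as an osteoclast signature. The myeloid sum was 1955 to 2726 in the C1q libraries and 2274 to 3524 in the control libraries.

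**Figure D1:**
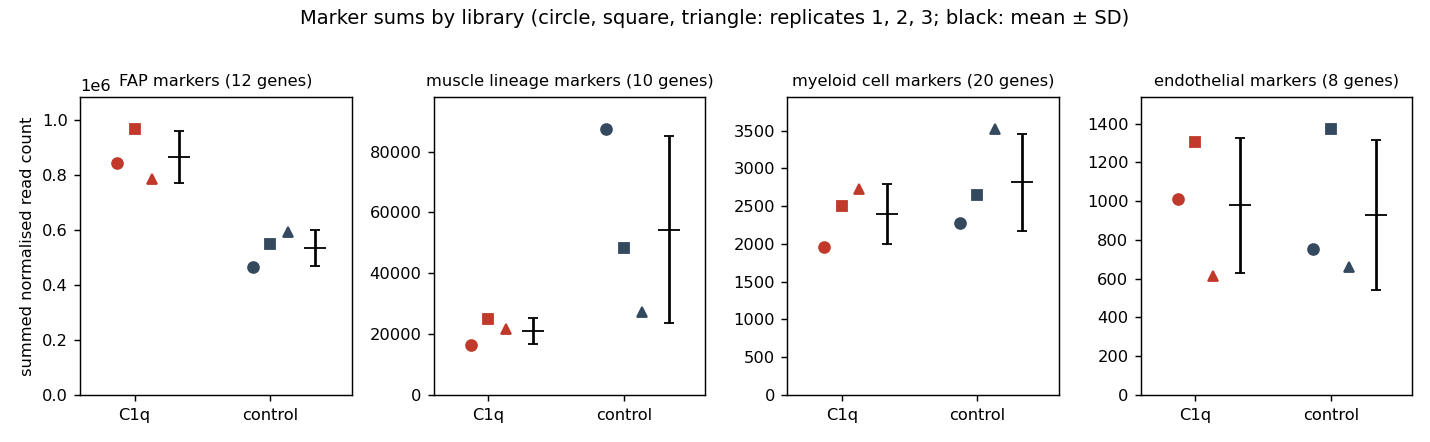
Summed normalised read counts of 4 marker lists in each library, C1q left and control right, with replicates 1, 2 and 3 as circle, square and triangle and the mean ± SD in black. FAP markers are higher in all 3 C1q libraries, muscle markers are highest in control replicate 1, and the myeloid and endothelial sums overlap between groups; Tek makes up most of the endothelial sum.

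Spp1 (Entrez gene 20750, chromosome 5, 104435111 to 104441053, all positions refer to GRCm38) had 4446, 5005 and 7677 normalised reads in C1q replicates 1, 2 and 3, against 43338, 25539 and 51332 in control replicates 1, 2 and 3. All C1q libraries lay below all control libraries, and the lowest control value was 3.33 times the highest C1q value. The means were 5709 ± 1727 with C1q and 40069 ± 13203 in controls (SD, n = 3 in each group throughout), and the log2 fold change was -2.79 ± 0.29 (SE), 6.93-fold lower with C1q. Osteopontin mRNA took 0.0198%, 0.0214% and 0.0345% of all normalised reads in C1q replicates 1 to 3 and 0.191%, 0.113% and 0.224% in control replicates 1 to 3. Per kilobase of the longest annotated transcript the level was 3788 with C1q and 26589 in controls, which placed Spp1 at rank 273 with C1q and rank 30 in controls among 14933 genes with a known length. The control libraries differed among themselves, with replicate 3 at about the level of replicate 1 and above replicate 2. Control replicate 2, the lowest for Spp1, held more Adgre1 and Tyrobp reads than control replicates 1 and 3. It also held more endothelial reads, with 1, 123 and 0 Pecam1 reads and 46, 207 and 7 Cdh5 reads in control replicates 1 to 3, and their part in the Spp1 values was not tested. The order of the controls in Spp1 was not that of the muscle genes, which were highest in control replicate 1. Like Spp1, the muscle sum was lower in every C1q library than in every control library, and the part of muscle RNA in the Spp1 values was not tested. In bulk RNA, fewer cells expressing a gene and less RNA of it per cell cannot be told apart. An annotated gene on the same strand, Gm42793, overlaps exons of Spp1, and reads that both could claim cannot be told apart.

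**Figure D2:**
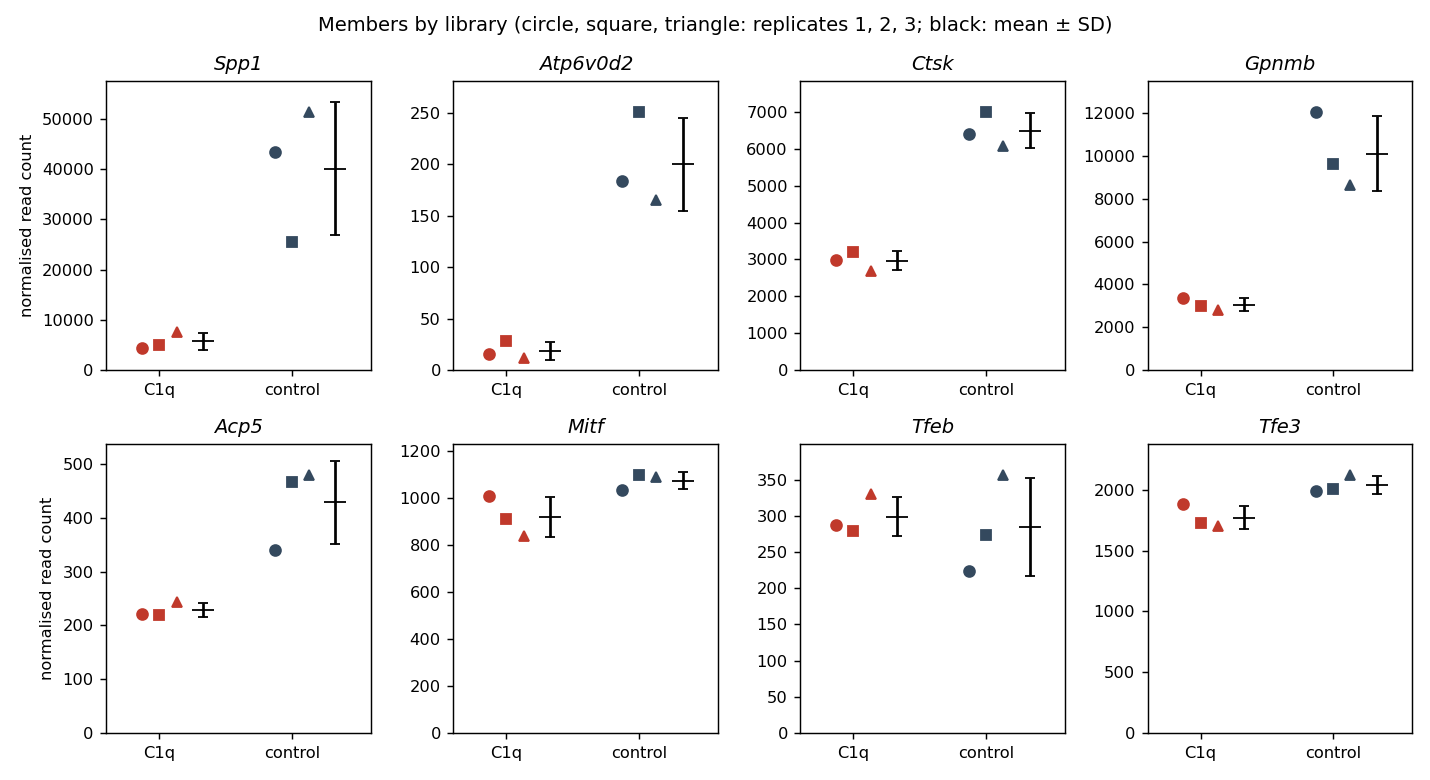
Normalised read count (linear axis from 0) of each of the 8 members in every library, C1q left and control right, with replicates 1, 2 and 3 as circle, square and triangle and the mean ± SD in black. The groups do not overlap for 7 members, with the widest gaps in Spp1, Atp6v0d2 and Gpnmb, and they overlap for Tfeb.

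Atp6v0d2 (Entrez gene 242341, chromosome 4, 19876838 to 19922566) encodes the d2 form of a V-ATPase subunit in the membrane sector, a form known from osteoclasts and macrophages, where it also takes part in cell fusion. It had 16.2, 28.3 and 11.95 normalised reads in C1q replicates 1, 2 and 3, against 184, 250.9 and 166 in control replicates 1, 2 and 3. These values rest on 23, 29 and 16 reads in the C1q libraries and 315, 325 and 39 in the control libraries. The groups did not overlap, and the lowest control value was 5.87 times the highest C1q value. The log2 fold change was -3.41 ± 0.33 (SE), 10.6-fold lower with C1q, and it ranged from -3.73 to -3.14 when 1 library was left out. The d1 form, Atp6v0d1, which serves most cells, was the abundant one: the d2 level per kilobase, as a percent of the d1 level, was 0.608 ± 0.25 with C1q and 4.12 ± 0.745 in controls. Atp6v0d1 itself averaged 1961 ± 117 with C1q and 3111 ± 288 in controls (log2 ratio -0.66 ± 0.09 SE, adjusted p 0.00109).

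Most other subunits of the proton pump were lower as well. Of 22 V-ATPase subunits and accessory proteins with a value, 16 were lower and 0 were higher. The shares were 72.7% and 0%, beside 18.7% and 19.7% of all genes. The median log2 fold change was -0.51, beside 0.029 for all genes. At an unadjusted p under 0.05 the limma-trend counts were 16 and 0, and edgeR and DESeq2 each called 16 lower and 0 higher. The calls were in both sectors. Atp6v1f, of the ATP-hydrolysing V1 sector, averaged 996 ± 51.5 with C1q and 2021 ± 97.8 in controls (log2 ratio -1.02 ± 0.07 SE, adjusted p 1.96e-04). Atp6v0b, of the proton-conducting V0 sector, averaged 979 ± 82.7 with C1q and 1853 ± 103 in controls (log2 ratio -0.92 ± 0.08 SE, adjusted p 3.09e-04). Atp6v0c and Atp6v1b2 changed by -0.70 and -0.66 on the log2 scale. The accessory subunit gene Atp6ap1, the most abundant of the list in read count, changed by -0.56. Tcirg1, the a3 subunit that osteoclasts place at the bone-facing membrane, averaged 716 ± 38.5 with C1q and 966 ± 70.9 in controls (log2 ratio -0.43 ± 0.08 SE, adjusted p 0.00513). The 6 subunits that were not called had log2 fold changes of -0.29 to 0.79. The same numbers were called, 16 lower and 0 higher, once a trend of the values on transcript length was removed (median -0.42), where Atp6v1f stood at -0.42, Atp6v0b at -0.42 and Atp6v0d1 at -0.41.

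Ctsk (Entrez gene 13038, chromosome 3, 95499210 to 95509387) encodes cathepsin K, a cysteine protease that cleaves fibrillar collagen in acid and is also made by activated fibroblasts. It had 2992, 3210.4 and 2692 normalised reads in C1q replicates 1, 2 and 3, against 6396, 6993 and 6066 in control replicates 1, 2 and 3. The groups did not overlap, and the libraries of each group lay close together. The log2 fold change was -1.13 ± 0.09 (SE), 2.19-fold lower with C1q. Per kilobase, Ctsk was 0.999 ± 0.0454 times Ctsl with C1q and 1.24 ± 0.137 times Ctsl in controls. Cathepsin L is the widely expressed relative. The similar levels per kilobase depend on the longest annotated transcripts, which are 1512 bases for Ctsk and 6168 bases for Ctsl. In normalised reads Ctsl stood above Ctsk, at 12090.5 ± 623.5 with C1q and 21357 ± 1455 in controls. Against Ctsd, the aspartic protease of most lysosomes, Ctsk was 0.129 ± 0.0165 with C1q and 0.214 ± 0.0321 in controls, per kilobase.

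Of 19 other cathepsins, acid phosphatases and cystatins with a value, 12 were lower and 2 were higher, with a median log2 fold change of -0.40. These shares were 63.2% and 10.5%, beside 18.7% and 19.7% of all genes. With the length trend removed the median was -0.20, 8 were lower and 2 higher, Cstb stood at -0.60, and Ctsd was not called (adjusted p 0.16). Ctsa, the protective protein of several lysosomal glycosidases, averaged 6539.6 ± 310.4 with C1q and 13705 ± 452 in controls (log2 ratio -1.07 ± 0.07 SE, adjusted p 1.96e-04). The asparaginyl protease gene Lgmn averaged 5089.9 ± 165 with C1q and 11679 ± 1193 in controls (log2 ratio -1.19 ± 0.09 SE, adjusted p 2.05e-04). Ctsl changed by -0.82 (adjusted p 5.34e-04 in the same fit), and Ctsb by -0.50 (adjusted p 0.00627). Cstb, which encodes an inhibitor of cysteine cathepsins, averaged 1065 ± 54.3 with C1q and 2713 ± 139 in controls (log2 ratio -1.35 ± 0.07 SE, adjusted p 1.12e-04), so a protease inhibitor gene was among those that fell. Ctsd was called lower at -0.40 (adjusted p 0.0303), but without control replicate 1 or 3, or any 1 of the C1q libraries, its adjusted p was 0.0506 to 0.11. The 2 genes called higher were Acp2, given with Acp5 below, and Ctso, another cysteine cathepsin (log2 ratio 0.91 ± 0.10 SE, adjusted p 5.64e-04), which was named after its values were seen. The largest differences among the called genes, also looked up after the values were seen, were those of the cystatin gene Cst6, with 74.7 ± 26.95 with C1q and 306 ± 129 in controls, and of Acpp, the prostatic acid phosphatase gene, with 25.4 ± 4.97 with C1q and 89.2 ± 47.2 in controls. Exons of Fdft1 overlap Ctsb, and exons of Pltp and Neurl2 overlap Ctsa, on the opposite strand. So do annotated exons on Ctsl, Atp6v0b, Lamp1, Rragc, Lamtor1, Sqstm1, Itgav, Il34, Csf1r, Cx3cr1, Phospho1, Pmel, Pdgfra, Mt2 and Hmga1. Whether counting used strand is unstated, so reads of such partners cannot be told apart. Ctsd, Ctsl, Pdgfra and Phospho1 also overlap annotated genes on their own strand.

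Acp5 (Entrez gene 11433, chromosome 9, 22126727 to 22135746) encodes tartrate-resistant acid phosphatase (TRAP), the enzyme by which osteoclasts are stained. It had 222, 220.3 and 243 normalised reads in C1q replicates 1, 2 and 3, against 340.3, 467 and 480.4 in control replicates 1, 2 and 3. The C1q libraries lay within a narrow range below all controls, and control replicate 1 was the lowest of the controls. The log2 fold change was -0.89 ± 0.15 (SE), 1.86-fold lower with C1q. Acp2, the lysosomal acid phosphatase of most cells, ran the other way with 2071 ± 114 with C1q and 1574 ± 217 in controls (log2 ratio 0.40 ± 0.10 SE, adjusted p 0.0181). Its adjusted p was 0.0705, 0.0553 and 0.057 without C1q replicate 1, C1q replicate 3 and control replicate 1, and 0.164 with the length trend removed. The ratio of Acp5 to Acp2 per kilobase was 0.356 ± 0.028 with C1q and 0.883 ± 0.171 in controls. Annotated exons of other genes overlap Acp5 (6530413G14Rik) and Acp2 (Ddb2) on the opposite strand.

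Gpnmb (Entrez gene 93695, chromosome 6, 49036518 to 49058182) encodes a transmembrane glycoprotein of lysosomes and melanosomes that accumulates when lysosomes are under load. It had 3388, 2993 and 2799 normalised reads in C1q replicates 1, 2 and 3, against 12039, 9594 and 8634 in control replicates 1, 2 and 3. The groups did not overlap, and the highest control, replicate 1, was also the control with the most muscle RNA; the part of muscle RNA in this was not tested. The log2 fold change was -1.71 ± 0.13 (SE), 3.27-fold lower with C1q, and it was -1.58 without control replicate 1. Pmel, the melanosome gene closest to Gpnmb in sequence, averaged 48.5 ± 7.90 with C1q and 26.01 ± 15.5 in controls and was not called (log2 ratio 1.10 ± 0.52 SE, adjusted p 0.137). Mlana, a melanocyte gene driven by MITF in that lineage, had 3.52, 3.90 and 13.4 normalised reads in C1q replicates 1, 2 and 3, against 115, 163 and 93.5 in control replicates 1, 2 and 3, from 5, 4 and 18 reads with C1q and 197, 211 and 22 in controls. The groups did not overlap, and Mlana fell by 4.15 ± 0.48 (SE) on the log2 scale (adjusted p 6.78e-04). It was the only 1 of 8 melanocyte and Schwann cell markers with a value that was called lower, while S100b, a Schwann cell marker, was called higher; S100b lost its call without C1q replicate 1 or 2 or control replicate 1 (adjusted p 0.0523 to 0.0847). Of these 8 markers 12.5% were called lower and 25% higher, beside 18.7% and 19.7% of all genes. The melanocyte enzyme gene Dct had at most 5 reads in a library, and Tyr and Tyrp1 were not found by symbol.

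The transcription factor genes stood apart from the 5 genes above in the size of their differences. Mitf (Entrez gene 17342, chromosome 6, 97807002 to 98021360) had 1007, 910.3 and 838 normalised reads in C1q replicates 1, 2 and 3, against 1032, 1097 and 1088 in control replicates 1, 2 and 3. The lowest control was 1.02 times the highest C1q value, so the groups only just separated, and the log2 fold change was -0.23 ± 0.08 (SE). Tfe3 (Entrez gene 209446, chromosome X, 7762530 to 7775202) had 1885, 1726 and 1707 normalised reads in C1q replicates 1, 2 and 3, against 1988, 2005 and 2126 in control replicates 1, 2 and 3. The lowest control was 1.05 times the highest C1q value, with a log2 fold change of -0.20 ± 0.07 (SE). Tfeb (Entrez gene 21425, chromosome 17, 47737037 to 47792416) had 287, 279.7 and 330.2 normalised reads in C1q replicates 1, 2 and 3, against 224, 273 and 357 in control replicates 1, 2 and 3. Its groups overlapped, the controls spread more widely than the C1q libraries, and the log2 fold change was 0.094 ± 0.17 (SE), or -0.066 without control replicate 1, so a fall of Tfeb is not seen in these values. Tfec, the fourth gene of the family, known from macrophages, had at most 4 reads in a library.

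Per kilobase of transcript, Tfe3 made up 46.9% ± 0.617 with C1q and 48.6% ± 1.72 in controls of the summed level of the 4 family members. Mitf made up 31.5% ± 1.81 with C1q and 33.2% ± 1.57 in controls, and Tfeb 21.5% ± 2.42 with C1q and 18.2% ± 3.06 in controls. The libraries of the groups overlapped in all 3 shares. With the length trend removed, Mitf stood at -0.45 and Tfe3 at -0.56, both with long transcripts, and Tfeb at 0.20. Of the 8 members 6 were called lower and 0 higher, beside 18.7% and 19.7% of all genes, and 7 had all C1q libraries below all controls, beside 25.4% of all genes; 0 had all C1q libraries above all controls, beside 26.8%. Mitf and Tfeb were the 2 not called. Because the members were chosen on this contrast, nothing is read from these counts.

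**Figure D3:**
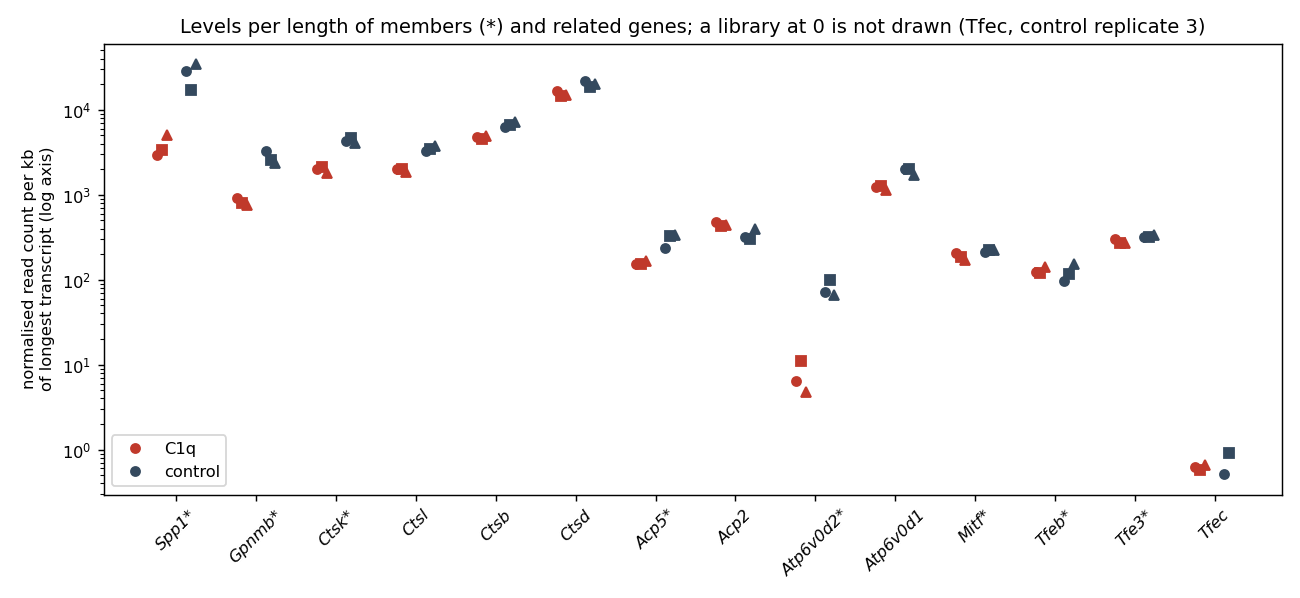
Normalised read count per kilobase of the longest transcript (log axis) in each library for the members, marked with an asterisk, and related genes, with C1q to the left of control and replicates 1, 2 and 3 as circle, square and triangle. Spp1 reaches the highest level of the genes shown in 2 of the controls, Atp6v0d2 lies far below Atp6v0d1 in all libraries, and Mitf, Tfeb and Tfe3 lie close together in both groups.

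Reported targets of the MiT/TFE factors that were called were lower with C1q, with 1 exception. Of 44 targets other than the members, 26 were lower and 1 was higher (59.1% and 2.27%), beside 18.7% and 19.7% of all genes. The median log2 fold change was -0.38, beside 0.029 for all genes. With the length trend removed the median was -0.41, with 26 lower and 1 higher. Gla, which encodes the lysosomal alpha-galactosidase, averaged 458 ± 12.7 with C1q and 1229.8 ± 189.9 in controls (log2 ratio -1.41 ± 0.12 SE, adjusted p 2.58e-04). Naglu, an enzyme of heparan sulfate breakdown, averaged 2299.9 ± 107 with C1q and 4297 ± 129 in controls (log2 ratio -0.90 ± 0.06 SE, adjusted p 1.96e-04). Ctns, the cystine exporter of the lysosome, changed by -0.88 (adjusted p 2.05e-04 in the same fit). Hmox1, the haem-degrading oxygenase, changed by -1.37 (adjusted p 3.43e-04). Sqstm1, the autophagy receptor p62, stood at 9346 ± 372 with C1q and 11305 ± 1221 in controls and was not called (log2 ratio -0.27 ± 0.10 SE, adjusted p 0.0606), but had an adjusted p of 0.0415 in the blocked fit. The 1 target called higher was Fnip1, named after its values were seen. The list was compiled from reports in other cell types, and it shares 4 genes with the cathepsin list and 5 with that of lysosomal membrane proteins.

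Regulators and partners of the MiT/TFE factors were called in both directions, mostly lower. The list holds the Rag, Ragulator and folliculin genes of the lysosomal nutrient-sensing machinery that keeps TFEB and TFE3 in the cytoplasm, and also genes that act the other way, such as calcineurin subunits and the lysosomal calcium channel gene Mcoln1. Of 24 genes, 7 of which are also in the target list, 13 were lower and 3 were higher. These shares were 54.2% and 12.5%, beside 18.7% and 19.7% of all genes. The median was -0.30, or -0.18 with the length trend removed, where 10 were lower and 1 was higher. Fnip2, a partner of folliculin, averaged 576 ± 32.6 with C1q and 1157 ± 127 in controls (adjusted p 3.63e-04). Flcn, which encodes folliculin and is itself a reported target, averaged 933 ± 54.97 with C1q and 1398 ± 79.4 in controls (log2 ratio -0.58 ± 0.08 SE, adjusted p 9.94e-04). Fnip1, the other folliculin partner, was called higher at 0.32 (adjusted p 0.0326), a difference that was -0.031 with the length trend removed. The Rag GTPase gene Rragc changed by -0.56 (adjusted p 6.55e-04 in the same fit). Rragd, the Rag gene most tied to MiT/TFE activity and named after its values were seen, had 100.1, 114 and 97.9 normalised reads in C1q replicates 1, 2 and 3, against 393, 280.3 and 140.3 in control replicates 1, 2 and 3, a log2 fold change of -1.26 (adjusted p 0.022, and up to 0.0683 with 1 library left out). Control replicate 1 was high and replicate 3 low for Rragd, the order of the muscle genes, and the part of muscle RNA in this was not tested. The Ragulator genes Lamtor1 and Lamtor3, which anchor Rag GTPases to the lysosome, changed by -0.78 and -0.86, and all 5 Lamtor genes were called lower. With the length trend removed, Lamtor1 stood at -0.60 and Lamtor3 at -0.81. Lamtor2, Lamtor4 and Lamtor5, named after their values were seen, then stood at 0.18, -0.22 and -0.14. They were not called in that fit (adjusted p 0.0947, 0.0881 and 0.373).

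**Figure D4:**
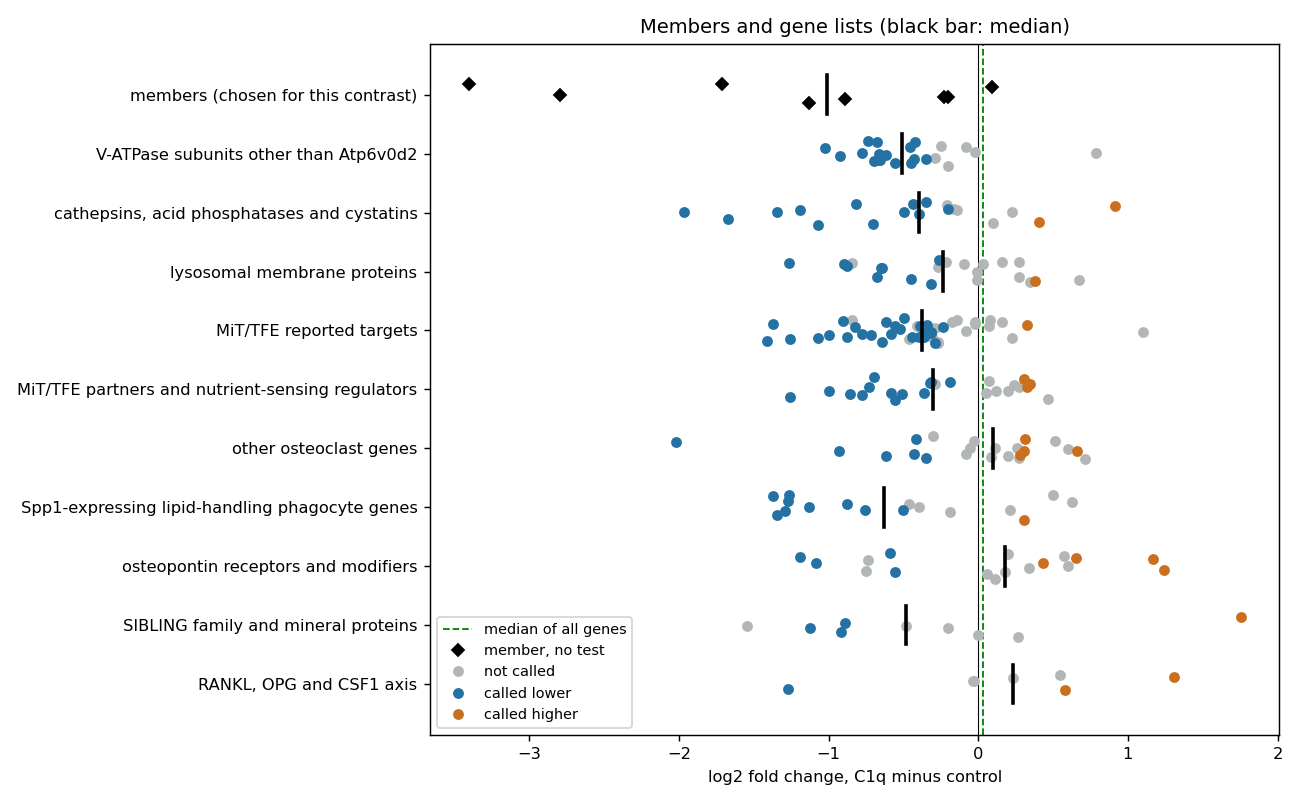
Log2 fold change, C1q minus control, of the 8 members (black diamonds, no test) and of each gene in 10 lists, with genes called lower in blue, called higher in orange and not called in grey; the bar is the median and the dashed line the median of all genes. Blue points dominate the rows of V-ATPase subunits, cathepsins and MiT/TFE targets, while the other osteoclast genes and the osteopontin receptors hold both colours.

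Lysosomal membrane proteins were mostly not called or lower. Of 22, 9 were lower and 1 was higher (40.9% and 4.55%), beside 18.7% and 19.7% of all genes. The other 12 were not called, and the median was -0.24. Cd63, a tetraspanin of late endosomes and exosomes, averaged 10031 ± 404 with C1q and 24092 ± 522 in controls (log2 ratio -1.26 ± 0.08 SE, adjusted p 1.48e-04). Lamp1 averaged 19731 ± 1519.8 with C1q and 30745 ± 1882 in controls (log2 ratio -0.64 ± 0.10 SE, adjusted p 0.00224), while its relative Lamp2 stood at 15824 ± 720.1 with C1q and 15569 ± 1788 in controls and was not called (log2 fold change 0.029). Npc2, the cholesterol-binding protein of the lysosome lumen, changed by -0.67 (adjusted p 5.64e-04 in the same fit).

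Other genes known from osteoclasts were called at shares near those of all genes, which were 18.7% lower and 19.7% higher. Of 22 with a value, 6 were lower and 4 were higher, and 12 were not called, with a median of 0.098 beside 0.029 for all genes. The count of higher genes was 1 with the length trend removed, and 2 without C1q replicate 1, C1q replicate 2 or control replicate 1. Mmp14, a membrane-bound collagenase of fibroblasts as well as osteoclasts, averaged 16326 ± 1676 with C1q and 31034 ± 1383 in controls (log2 ratio -0.93 ± 0.10 SE, adjusted p 5.91e-04). The V-ATPase gene Atp6v1c1, which like Tcirg1 is in the V-ATPase list too, changed by -0.62 (adjusted p 7.85e-04 in the same fit). Slc9b2, a sodium-proton exchanger that marks mature osteoclasts and is named here after its values were seen, had 6.34, 11.7 and 19.4 normalised reads in C1q replicates 1, 2 and 3, against 49.5, 33.2 and 72.3 in control replicates 1, 2 and 3, a log2 fold change of -2.02 (adjusted p 0.0104). Nfatc1, the master regulator of osteoclast formation, stood at 761 ± 50.1 with C1q and 633 ± 73.4 in controls. It was not called (log2 ratio 0.27 ± 0.10 SE, adjusted p 0.077), with an adjusted p of 0.0295 in the blocked fit. With the length trend removed, Nfatc1 stood at 0.057 (adjusted p 0.694). Mmp9 and Itgb3, further osteoclast genes, were not called either (log2 fold change 0.60 and 0.20, adjusted p 0.462 and 0.508 by limma-trend). Sh3pxd2a, a podosome scaffold gene, was called higher at 0.66, or 0.070 and not called with the length trend removed.

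Osteopontin's partners were called lower and higher at shares close to those of all genes. Of 17 receptors, proteases and modifying enzymes, 4 were lower and 4 were higher, beside 18.7% and 19.7% of all genes (23.5% each way here), and the count of higher genes was 2 without C1q replicate 1, C1q replicate 3, control replicate 1 or control replicate 2. Cd44 averaged 2077 ± 203 with C1q and 3151 ± 548 in controls (log2 ratio -0.59 ± 0.13 SE, adjusted p 0.0107). The integrin gene Itgav, whose product pairs with beta chains to bind the RGD sequence of osteopontin, averaged 5347 ± 268 with C1q and 3399 ± 219 in controls (log2 ratio 0.65 ± 0.07 SE, adjusted p 6.18e-04). Itga9, whose product binds osteopontin after thrombin cleavage, averaged 1710.2 ± 67.7 with C1q and 764 ± 108 in controls (log2 ratio 1.17 ± 0.10 SE, adjusted p 3.04e-04). Itga5 changed by -0.55 and Mmp2, a metalloproteinase that can cut osteopontin, by -1.09 (adjusted p 0.00159 and 0.00124 in the same fit). With the length trend removed, Itgav stood at 0.24, Itga9 at 0.76 and Cd44 at -0.89.

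Osteopontin is 1 of a family of acidic bone proteins, the SIBLING proteins. Of the others only Dmp1 had a value here, with at most 6 reads in a library, and Ibsp, Mepe and Dspp were not found by symbol. Alkaline phosphatase (Alpl), an osteoblast marker, stood at 4.93, 12.7 and 26.9 normalised reads in C1q replicates 1, 2 and 3, against 5.24, 14.7 and 34.01 in control replicates 1, 2 and 3, with overlapping groups. Of 9 genes of this list 3 were lower and 1 was higher, and 4 were lower by edgeR, DESeq2 and the blocked fit. The limma-trend shares were 33.3% lower and 11.1% higher, beside 18.7% and 19.7% of all genes. Phospho1, a phosphatase that starts mineral formation, averaged 26.8 ± 3.48 with C1q and 50.7 ± 7.09 in controls (log2 ratio -0.89 ± 0.23 SE, adjusted p 0.0189), with an adjusted p of up to 0.0713 with 1 library left out. The calcification inhibitor gene Mgp averaged 9862 ± 2453 with C1q and 18240.2 ± 1540.2 in controls (log2 ratio -0.91 ± 0.18 SE, adjusted p 0.00569), a call lost with the length trend removed (adjusted p 0.359). Enpp1, which makes the mineral inhibitor pyrophosphate, averaged 1383 ± 139.6 with C1q and 3102 ± 938 in controls (log2 ratio -1.12 ± 0.21 SE, adjusted p 0.00493), and the proteoglycan gene Omd averaged 194 ± 52.7 with C1q and 59.03 ± 23.2 in controls (log2 ratio 1.75 ± 0.34 SE, adjusted p 0.00574). The collagen-binding glycoprotein gene Sparc stood at 68586 ± 6295 with C1q and 68445 ± 3119 in controls.

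Signals by which stromal cells direct osteoclasts were measured as well. Il34, a second ligand of the macrophage growth factor receptor, averaged 498 ± 60.9 with C1q and 199.9 ± 16.4 in controls (log2 ratio 1.31 ± 0.12 SE, adjusted p 3.34e-04). Csf1, the main ligand, was abundant at 30379 ± 2027 with C1q and 25905 ± 1658 in controls and was not called (log2 ratio 0.23 ± 0.10 SE, adjusted p 0.113). Tnfsf11, which encodes RANKL, had 60.6, 72.1 and 173 normalised reads in C1q replicates 1, 2 and 3, against 70.5, 53.3 and 217 in control replicates 1, 2 and 3, with replicate 3 high in both groups and the groups overlapping. Tnfrsf11b, which encodes the RANKL decoy osteoprotegerin, had 115, 111 and 154 normalised reads in C1q replicates 1, 2 and 3, against 68.8, 81.8 and 111 in control replicates 1, 2 and 3 (log2 fold change 0.55, adjusted p 0.0914, and 0.0347 in the blocked fit). Tnfrsf12a, the receptor for the cytokine TWEAK, averaged 287 ± 12.9 with C1q and 703 ± 137 in controls (log2 ratio -1.27 ± 0.14 SE, adjusted p 5.65e-04), or -0.77 with the length trend removed. Of the 7 genes of this list, 1 was lower and 2 were higher (14.3% and 28.6%), beside 18.7% and 19.7% of all genes.

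Genes that accompany Spp1 and Gpnmb in lipid-handling phagocytes of other tissues were also mostly lower. Of 16, 9 were lower and 1 was higher (56.25% and 6.25%), beside 18.7% and 19.7% of all genes. The median was -0.63 (-0.41 with the length trend removed). Lgals3, which encodes galectin 3, a lectin recruited to damaged lysosomes, averaged 2061 ± 194 with C1q and 4994 ± 651 in controls (log2 ratio -1.27 ± 0.11 SE, adjusted p 3.09e-04). Cd63, Cstb and Hmox1, given above, are in this list too. Trem2, the receptor that defines such macrophages, had at most 6 reads in a library, and Apoe stood at 12490.3 ± 2937 with C1q and 16444 ± 3659 in controls and was not called. Lpl, which encodes lipoprotein lipase, was called lower at -0.50 (adjusted p 0.0453), with an adjusted p of 0.0542 to 0.153 without any 1 library other than control replicate 1.

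The genes whose profile was most like that of Spp1 were found by the root mean square difference of log2(value + 1) over the 6 libraries, each gene centred on its own mean, among 12306 genes whose mean on that scale reached 5. The nearest was Ccl2, the monocyte chemoattractant, at 0.331, followed by Aldoc (0.332), Lrp8 (0.359) and the metallothionein genes Mt1 (0.393) and Mt2 (0.421). Ccl2 had 469, 417 and 557 normalised reads in C1q replicates 1, 2 and 3, against 2479, 1495 and 4868 in control replicates 1, 2 and 3. As with Spp1, control replicate 2 was the lowest control and replicate 3 the highest. The genes nearest to Atp6v0d2 were Mt1 (0.468), Mt2 (0.484), the chromatin protein gene Hmga1 (0.613), the coagulation factor gene F7 (0.623) and the stress hormone gene Gdf15 (0.673). These likenesses rest on 6 libraries in 2 groups and are a description.

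The members' differences were set against the main processing choices. Leaving out 1 library moved the log2 fold change of Spp1 between -3.09 and -2.58, of Ctsk between -1.19 and -1.06 and of Acp5 between -1.05 and -0.80. Removing a trend of the values on transcript length moved Ctsk to -0.84 and Acp5 to -0.58, both with short transcripts, and Spp1 to -2.50.

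**Figure D5:**
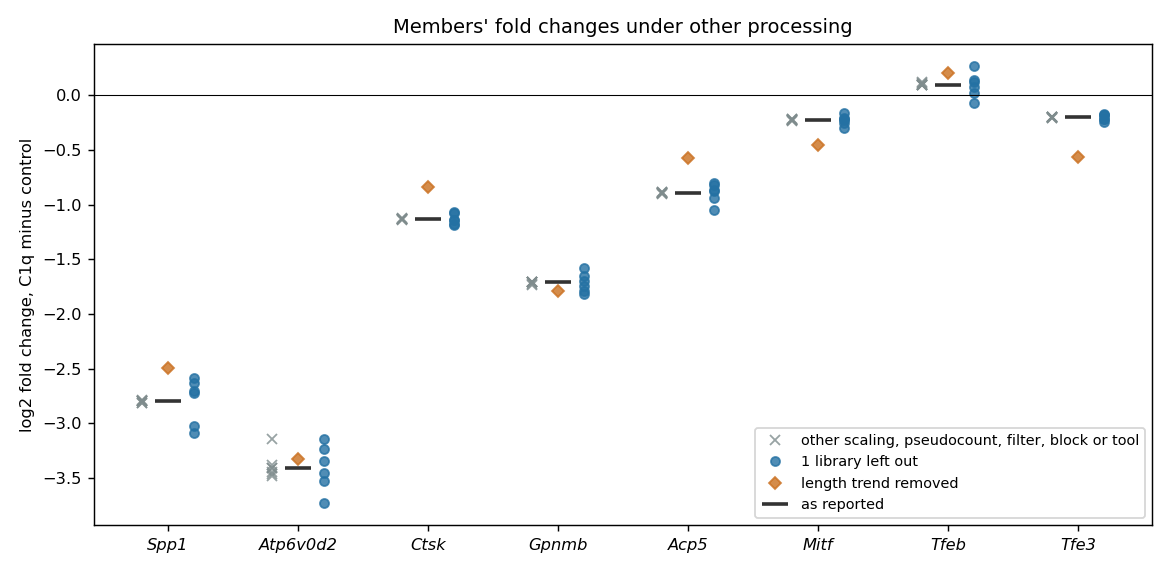
Log2 fold change, C1q minus control, of each member as reported (black bar), with 1 library left out (blue circles), with a trend on transcript length removed (orange diamonds) and under other scaling, pseudocount, filter, block or tool (grey crosses). Spp1, Atp6v0d2, Ctsk, Gpnmb and Acp5 stay below 0 throughout, and Tfeb lies on both sides of 0.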

How the data were processed

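The deposited table gives a normalised signal per Entrez gene ID: read counts divided by a size factor per library by the authors, although counts are what the file headers announce. The submitters' processing notes name mm10 as the build and, as tools, featureCounts, HISAT2, Trimmomatic and DESeq2, without a strand setting. In every library 100% of the values were whole multiples of 1 read within 0.001 of a read, so reads were recovered. The lowest mean of a listed gene is 1.00, and intervals for single counts were not computed. The tests planned for normalised values were used as the main ones.

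Entrez IDs were matched to symbols and positions in RefSeq's table for GRCm38.p6 (16077 of 16671), and lengths of the longest transcript from GENCODE vM21 (14933 IDs). Groups were compared in R 4.3.3 with limma-trend (version 3.58.1) on log2(value + 1), a scale that understates changes of low genes, and it was tested on simulated data. A count test with edgeR 4.0.16 on the recovered reads called 3513 genes lower and 3368 higher, against 3112 and 3277 in the main test; DESeq2 1.42.0 was a further alternative. Summed marker levels were compared by exact permutation tests. The members and the 15 gene lists were chosen with earlier results of these data known. Named genes are the members, in each list the 4 lowest p and the highest mean, a fixed set of related genes, and the 5 profiles nearest to Spp1 and to Atp6v0d2; others are marked as named after their values were seen or are named only within a count. Some genes of the lists are not reported here by name. All pairs of replicates differed by more than sampling noise (chi-square per degree of freedom 16.5 to 40.3). Deviations from the group mean correlated at 0.201, 0.369 and 0.333 between libraries with the same replicate number (pairs 1, 2 and 3, genes averaging 20 or more). Libraries with different numbers were not set beside them, so these values do not show that the numbers mark true pairs. The labels do not state pairs either, and the replicate block is used only as an alternative.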

Additional observations from a re-analysis of the deposited data

How the results depend on the processing

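The genes called lower numbered 3112, and 2259 to 3583 with 1 library left out; those called higher numbered 3277, and 2329 to 3659. The list medians that moved by more than the spread between replicates were these. With a loess trend (span 0.5) on transcript length removed, the median was -0.093 for other osteoclast genes, -0.030 for osteopontin receptors and modifiers, -0.26 for SIBLING family and mineral proteins, -0.18 for MiT/TFE partners and nutrient-sensing regulators, -0.42 for V-ATPase subunits other than Atp6v0d2, -0.20 for cathepsins, acid phosphatases and cystatins, -0.41 for Spp1-expressing lipid-handling phagocyte genes. With edgeR and TMM scaling, the median was -1.26 for endothelial markers, -0.60 for V-ATPase subunits other than Atp6v0d2. With DESeq2, the median was -1.18 for endothelial markers, -0.59 for V-ATPase subunits other than Atp6v0d2. With the filter at a mean of 10, the median was -0.59 for V-ATPase subunits other than Atp6v0d2, -0.44 for cathepsins, acid phosphatases and cystatins. With 1 library left out, the medians ran from 0.011 to 0.14 for other osteoclast genes; 0.018 to 0.23 for osteopontin receptors and modifiers; -0.75 to -0.34 for SIBLING family and mineral proteins; 0.21 to 0.56 for RANKL, OPG and CSF1 axis; -0.36 to -0.23 for MiT/TFE partners and nutrient-sensing regulators; -0.59 to -0.51 for V-ATPase subunits other than Atp6v0d2; -0.44 to -0.37 for cathepsins, acid phosphatases and cystatins; -0.27 to -0.13 for lysosomal membrane proteins. The cause was not tested, beyond the fewer genes tested under the filter and the fewer libraries. With the replicate block, 0 named genes lost a call, 3285 genes were called lower and 3548 higher. Genes that gained a call included Sqstm1, Nfatc1 and Tnfrsf11b, whose values are given above, and Acta1, Emcn and Lyz2 (adjusted p 0.0431, 0.0253 and 0.0056). Acta1 and Emcn were lower with C1q, and Lyz2 was higher. Ctsk, Acp5, Mitf and Tfe3 moved by more than the spread between replicates with the length trend removed, to -0.84, -0.58, -0.45 and -0.56. In that setting Fnip1 and Lamtor2 changed sign, to -0.031 and 0.18. Of the called genes that the rule names, none changed sign under the alternatives run. The depth of control replicate 3 limits genes with few reads, such as Tfec and Dmp1, where a difference was not detectable.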
